A study of Drosophila melanogaster with 44 samples.

Results

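Of the 6 wild-type samples among 44 arrays of adult female Drosophila melanogaster, 2 had high RNA of late eggshell genes and 4 did not. The pair, replicates 4 and 5, was chosen by measured values: Cp15 and Cp36, chorion genes of late follicle cells, both lay above 12 on the log2 scale there, and the other wild-type arrays, replicates 1, 2, 3 and 6, did not reach that value. All 6 samples had the same genotype label, wild type with no deletion, the same label for age, 0 to 24 h after eclosion, the same culture temperature, 25 °C, and 15 whole females each. The 38 remaining arrays held females of the same age window with 1 (19 arrays) or 2 (19 arrays) of 7 deficiencies, Df(2L)ED3, Df(2L)ED4559, Df(2R)ED1612, Df(2R)ED1770, Df(3R)ED10953, Df(3R)ED5071 and Df(3R)ED7665, each of which leaves 1 copy of a stretch of genes; none of the 7 lies on the X or on 3L, where the measured chorion genes are. RNA came from pooled whole flies, so a level is an average over tissues, and fewer cells of a type and less RNA per cell cannot be told apart.

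The Drosophila ovary makes eggs in strings of follicles in which germline cells, the nurse cells and an oocyte, are wrapped in a layer of somatic follicle cells. Follicle cells first help supply yolk, then secrete the vitelline membrane, the inner eggshell layer, and in the last stages of oogenesis secrete the chorion, the outer layer, from gene clusters that they amplify by repeated firing of local replication origins. Females eclose with immature ovaries, and the first follicles pass through these stages early in adult life, while the new adult cuticle is still being tanned and hardened and feeding begins.

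The rule left a wide gap. Cp15 had log2 values of 14.10 and 13.48 in replicates 4 and 5, against 4.98, 4.13, 4.53 and 8.38 in replicates 1, 2, 3 and 6. Cp36 had 13.90 and 13.20 in replicates 4 and 5, against 6.78, 6.12, 6.35 and 7.81 in replicates 1, 2, 3 and 6. The array just inside the threshold was replicate 5 and the array just outside was replicate 6, which had more chorion RNA than replicates 1, 2 and 3 but less than the pair. Because the split was made from these arrays, all differences between them are given below as descriptions with no test, and the tests use the 38 deletion arrays, which the rule did not use.

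Array medians over 18952 probe sets were close, as RMA leaves them, and the number of arrays limits the precision. Of 11894 genes with a probe set of their own, 7485 had a mean of at least 6 (log2) over all 44 arrays, and counts refer to these. The markers of a female whole fly were present: Act88F of flight muscle lay above 14 on every wild-type array. Of 31 measured genes of testis and male accessory gland, 2 passed the filter, and the median level of the 31 was 3.52 to 3.82 over the 6 arrays. The germline marker nanos had 11.29 and 10.37 in replicates 4 and 5, against 6.44, 8.22, 6.54 and 6.86 in replicates 1, 2, 3 and 6. The markers vas, Mhc and ninaE were not analysed here.

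With a difference of at least 1 on the log2 scale between the means and no overlap between the arrays, 539 of 7485 genes (7.2%) were higher in replicates 4 and 5 and 630 (8.42%) were lower than in replicates 1, 2, 3 and 6. The median difference over all tested genes was -0.01. Among the genes that passed the filter and did not overlap, the 12 largest positive differences were those of Cp15, Cp18, Cp36, Cp38, Vm32E, CG13299, dec, fit, Jon99Fi, Npc2e, Fcp3C and Vm26Aa, which are genes of the eggshell, the fat body (fit) and the gut (Jon99Fi and Npc2e), besides CG13299, for which no role is given here. The 12 largest negative ones were those of CG14565, CG8534, CG13065, Cht5, CG17298, CG15263, CG8483, l(3)mbn, CG14572, TwdlT, CG13075 and Mal-B1, among them a chitinase (Cht5), a Tweedle cuticle protein (TwdlT) and a maltase (Mal-B1). Positive differences reached 8.28 and negative ones -3.22. The lower count depended on which member of the pair was kept: 301 genes were lower without replicate 4 and 1116 without replicate 5, so replicate 4 stood further from the 4 other arrays.

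All 7 chorion genes with a probe set were higher in the pair, and in each the arrays were far apart. The minor and major chorion proteins come from 2 amplified clusters, one on the X (Cp36, Cp38 and Cp7Fc) and one on 3L (Cp15, Cp16, Cp18 and Cp19). Cp38 had 12.94 and 12.09 in replicates 4 and 5, against 5.78, 5.22, 5.54 and 6.71 in replicates 1, 2, 3 and 6, a 104-fold difference of the means. Cp18 had 13.69 and 12.83 in replicates 4 and 5, against 5.62, 5.53, 5.998 and 7.48 in replicates 1, 2, 3 and 6, a 138-fold difference. The fold of the means was 311 for Cp15 (605 without replicate 6) and 111 for Cp36, the 2 genes that chose the pair. In every one of the 7 genes replicate 4 was above replicate 5, and replicate 6 was above replicates 1, 2 and 3.

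The remaining 3 chorion genes did not pass the filter on low values, since most of the 44 arrays were near the bottom of the scale for them. Cp16 had 12.96 and 11.63 in replicates 4 and 5, against 4.71, 4.38, 4.95 and 6.41 in replicates 1, 2, 3 and 6. Cp19 had 13.68 and 12.09 in replicates 4 and 5, against 5.15, 4.41, 5.11 and 6.93. Cp7Fc had 11.78 and 10.06 in replicates 4 and 5, against 4.09, 4.04, 4.04 and 5.43. The folds of these 3 genes depended on the member of the pair kept: 50.5 to 103 without replicate 4 and 166 to 311 without replicate 5. RMA can compress low values. Cp15 was also low in replicates 1, 2 and 3, at 4.98, 4.13 and 4.53. Whether the folds of Cp15 and of these 3 genes, dim on most arrays, understate the change was not tested.

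Genes of the vitelline membrane and other eggshell layers were also higher in the pair, but here replicate 2, which had the least Cp15 RNA of the 6, stood above replicates 1, 3 and 6 for most of them. Vm26Aa, a vitelline membrane protein, had 14.26 and 13.91 in replicates 4 and 5, against 8.74, 12.87, 7.50 and 10.08 in replicates 1, 2, 3 and 6. Vm32E, a vitelline membrane protein made late, had 12.82 and 12.26 in replicates 4 and 5, against 5.51, 10.33, 4.34 and 6.95. The product of dec, defective chorion 1, is needed to assemble the chorion, and its RNA had 12.15 and 11.27 in replicates 4 and 5, against 5.84, 9.50, 5.03 and 6.73. For these genes replicates 1, 2, 3 and 6 thus spread over several log2 units, with replicate 2 high and replicate 3 low. The folds moved with them: Vm26Aa was 19.5-fold higher in the pair, 39.7-fold without replicate 2 and 11.5-fold without replicate 3, Vm32E 54.1-fold, 123-fold and 30.7-fold, and dec 30.6-fold and 57.4-fold without replicate 2.

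A second group of eggshell genes followed the chorion pattern, with replicate 2 as low as the rest. The gene yellow-g2, of a family of secreted proteins that act in the eggshell, had 11.05 and 10.01 in replicates 4 and 5, against 5.14, 5.19, 5.12 and 5.40 in replicates 1, 2, 3 and 6. Femcoat, a chorion component, had 9.24 and 7.85 in replicates 4 and 5, against 4.07, 3.97, 3.99 and 4.43. Muc4B, named for a mucin-like sequence, had 8.12 and 7.42 in replicates 4 and 5, against 3.52, 3.19, 3.42 and 3.62. In these 3 genes replicates 1, 2, 3 and 6 differed by less than 0.5 from each other. The yellow-g2 paralogue yellow-g had its lowest value in replicate 2, with 10.98 and 10.31 in replicates 4 and 5, against 8.23, 7.17, 7.57 and 8.14.

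Of 17 measured genes of the vitelline membrane and other eggshell layers, 13 passed the filter, and 11 of these were higher by at least 1 without overlap and 1 was lower, with a median difference of 2.99. The shares over all tested genes were 7.2% higher and 8.42% lower. Pxt, a cyclooxygenase-like peroxidase of follicle cells, was 7.97-fold higher, and psd (palisade), ndl (the protease nudel), clos and fs(1)N, which encode proteins of the vitelline membrane or the space under it, were 2.97 to 13.9-fold higher. With the mean of its 3 probe sets clos was 1.84-fold higher, under the size used. The lower gene was Pxd, a peroxidase, with 5.59 and 6.08 in replicates 4 and 5, against 7.89, 7.60, 7.86 and 7.61 in replicates 1, 2, 3 and 6. The gene tsl, which encodes a protein that follicle cells place at the egg's poles, had a difference of -0.999 (8.91 and 9.21 in the pair, against 10.48, 9.73, 9.94 and 10.08), just short of the size used.

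**Figure D1:**
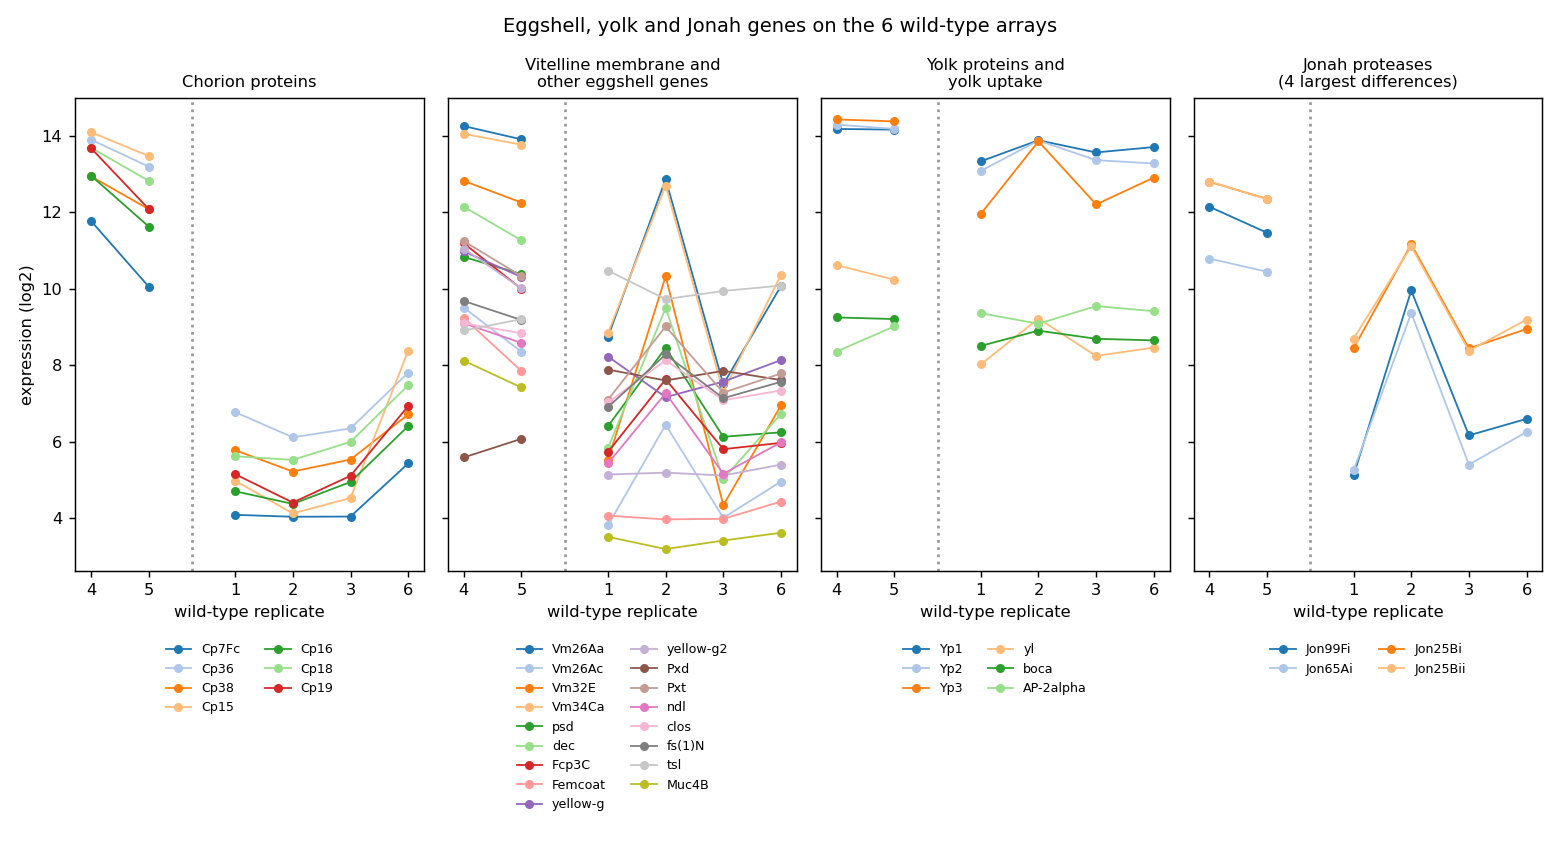
Log2 expression of the measured chorion genes, other eggshell genes, yolk genes and the 4 Jonah proteases with the largest differences on each wild-type array, with replicates 4 and 5 left of the dotted line and replicates 1, 2, 3 and 6 right of it; each line joins the values of 1 gene. Chorion genes are highest in replicates 4 and 5 and next in replicate 6, and many vitelline membrane, yolk and Jonah genes have an intermediate level in replicate 2.

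Yolk protein genes differed less than the vitelline membrane genes above and were high on every wild-type array. In the pair Yp1, Yp2 and Yp3 had means of 14.17, 14.24 and 14.41, near the highest value of the series, 14.66. Whether the top of the scale limits their differences was not tested. The yolk protein genes are read in fat body and follicle cells, and Yp1 had 14.18 and 14.16 in replicates 4 and 5, against 13.34, 13.89, 13.57 and 13.71 in replicates 1, 2, 3 and 6. Yp3 differed most of the yolk proteins and had 14.43 and 14.38 in replicates 4 and 5, against 11.96, 13.86, 12.21 and 12.91, a 3.19-fold difference. The yolk receptor gene yl, expressed in the oocyte, had 10.62 and 10.24 in replicates 4 and 5, against 8.03, 9.22, 8.25 and 8.46. Of the 6 measured yolk genes, these last 2 were higher by at least 1 without overlap, Yp1, Yp2 and boca, a chaperone of yl, were higher by 0.54 to 0.84, and AP-2alpha, an endocytic adaptor, was lower by 0.67.

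Genes of DNA replication were higher together: of 26 measured, 25 passed the filter, 15 were higher by at least 1 without overlap and none was lower, with a median difference of 1.36. Over all tested genes 7.2% were higher and 8.42% lower. Orc1, a subunit of the origin recognition complex, had 9.50 and 8.35 in replicates 4 and 5, against 6.16, 6.82, 6.19 and 6.01 in replicates 1, 2, 3 and 6, a 6.19-fold difference. Cdc6, which helps load the replicative helicase, was 5.44-fold higher, Mcm10, which helps activate it, 4.09-fold higher and CycE, the cyclin that starts S phase, 3.78-fold higher. The whole list also includes proteins of ordinary replication, so it is not specific to chorion gene amplification.

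Germline RNAs were also higher, where over all tested genes 7.2% were higher and 8.42% lower. Of 17 tested genes of egg activation and meiosis, 14 were higher by at least 1 without overlap and none lower (median difference 2.43). Of 26 tested genes of the germline and the piRNA pathway, which silences transposons, 15 were higher and none lower (median 1.20). Of 22 tested genes of maternal axis RNAs and their regulators, 8 were higher and none lower (median 0.60). Of 10 tested follicle cell regulators 0 were higher and 2 lower, close to the shares over all genes (Blimp-1, a repressor, and aos, an inhibitor of the EGF receptor).

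CycB3, a cyclin of meiosis and the early divisions, had 10.90 and 9.94 in replicates 4 and 5, against 6.34, 7.66, 6.29 and 6.82 in replicates 1, 2, 3 and 6. The RNA of bcd, the anterior determinant of the embryo, had 8.998 and 8.13 in replicates 4 and 5, against 4.60, 6.25, 4.71 and 4.93. In both genes replicate 2 was the highest of the 4, and still lay well below the lower member of the pair. The genes exu and swa, whose products place bcd RNA, were 7.61-fold and 5.19-fold higher, and BicC, an RNA-binding regulator of translation, 6.01-fold. With the mean of their 2 probe sets bcd was 3.55-fold and exu 3.82-fold higher, against 10.9-fold and 7.61-fold with the brighter probe set.

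Other egg activation genes, plu of the Pan gu kinase complex, the Polo inhibitor mtrm and the poly(A) polymerase wisp, were 6.67 to 7.76-fold higher. In the germline list otu, needed for germline growth and differentiation, was 8.20-fold higher, and krimp, rhi and del of the piRNA pathway 4.05 to 4.33-fold. Of the 15 tested nurse cell actin and ring canal genes 1 was higher, near the 7.2% of all genes: qua, a villin-like actin-bundling protein (3.51-fold).

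Outside the ovary lists, Hsp26, a small heat shock protein that the ovary also makes without heat, had 12.82 and 11.84 in replicates 4 and 5, against 8.85, 10.26, 8.54 and 8.93 in replicates 1, 2, 3 and 6. Its neighbour in function Hsp27 was 3.57-fold higher, and the other 8 tested chaperone genes did not reach the size used. Over all tested genes 7.2% were higher by that size without overlap and 8.42% lower. RpS5b, a ribosomal protein paralogue, was 2.68-fold higher, with 13.58 and 13.26 in replicates 4 and 5, against 11.75, 12.48, 11.76 and 12.01. At any size, 28 of the 34 tested cytosolic ribosomal protein genes were higher without overlap and none lower, against 2564 higher of 7485 over all tested genes. None of them but RpS5b reached the size used. Def, the antibacterial peptide defensin, had 11.02 and 9.95 in replicates 4 and 5, against 6.46, 7.83, 7.41 and 7.56, whereas of the other 14 tested immune peptide genes none was higher by that size without overlap.

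Among digestive genes, the Jonah proteases were the other large set of positive differences. Of 12 tested Jonah proteases, gut serine proteases, 11 were higher by at least 1 without overlap and none lower, against 7.2% and 8.42% of all tested genes. Their median difference was 2.41. Jon99Fi had 12.15 and 11.47 in replicates 4 and 5, against 5.12, 9.96, 6.17 and 6.6 in replicates 1, 2, 3 and 6. Replicate 2 again lay between the pair and replicates 1, 3 and 6, and the same held for Jon65Ai, Jon25Bi and Jon25Bii. Jon99Fi was 28.8-fold higher in the pair, 57.5-fold without replicate 2 and 18.8-fold without replicate 1.

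Of 39 other digestive genes, 11 were higher and 5 lower, against 7.2% and 8.42% of all genes, and their median difference was 0.23. The maltase gene Mal-A1, a gut marker, was lower in the pair, with a difference of -0.79 without overlap. Npc2e, of a family of sterol-binding proteins, had 11.84 and 11.54 in replicates 4 and 5, against 6.05, 9.32, 5.16 and 7.68 in replicates 1, 2, 3 and 6, a fold of 25 that was 42.2 without replicate 2 and 16.1 without replicate 3. The trypsin gene epsilonTry had 13.12 and 13.03 in replicates 4 and 5, against 8.96, 11.98, 9.33 and 9.77, a fold of 8.38 that was 13.2 without replicate 2. Both genes were intermediate in replicate 2, while Mal-B1, a maltase, was 5.04-fold higher in replicates 1, 2, 3 and 6. The lipase gene mag was 4.02-fold higher in the pair, and the odorant binding protein gene Obp99a was 6.48-fold higher. Each was the 1 higher gene of its list. Of 22 tested genes of fat synthesis, storage and transport 1 was lower, Dgat2 (median -0.07). Of 23 tested odorant binding protein genes 5 were lower (median -0.82), against 8.42% of all genes. In the fat body gene fit, made mostly in females, levels were 11.88 and 11.59 in replicates 4 and 5, against 5.01, 10.17, 4.96 and 7.40 in replicates 1, 2, 3 and 6. A spermathecal gene, Send2, had 7.74 and 9.75 in replicates 4 and 5, against 4.25, 8.52, 4.497 and 5.16, and its arrays overlapped through replicate 2. The fold of fit was 28.8, and between 18.4 and 61.4 with 1 array left out.

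Lower in the pair were the genes of cuticle formation and tanning. Of 13 tested genes of chitin and cuticle assembly, 11 were lower by at least 1 without overlap and none higher, with a median difference of -1.68. Over all tested genes 8.42% were lower and 7.2% higher. Cht5, a chitinase of the moult, had 9.08 and 8.83 in replicates 4 and 5, against 12.22, 10.95, 11.64 and 11.55 in replicates 1, 2, 3 and 6. The chitin synthase gene kkv had 8.25 and 8.99 in replicates 4 and 5, against 10.60, 10.39, 10.56 and 10.34. The chitin-binding protein gene obst-A was 4.77-fold and the chitin deacetylase gene verm 3.57-fold higher in replicates 1, 2, 3 and 6.

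Of 14 tested genes of tanning and pigment, 8 were lower and none higher (median -1.08), against 8.42% and 7.2% of all tested genes. The gene e (ebony), which conjugates dopamine with beta-alanine for cuticle tanning, had 9.42 and 9.40 in replicates 4 and 5, against 11.69, 9.99, 11.15 and 11.35 in replicates 1, 2, 3 and 6. Pu, the first enzyme of the cofactor that tyrosine hydroxylase needs, had 10.01 and 10.99 in replicates 4 and 5, against 12.14, 11.39, 11.97 and 12. In both genes replicate 2 was the lowest of the 4. Of 37 tested structural cuticle proteins of the CPR and Tweedle families, 7 were lower and 1 higher, against the same shares of all tested genes. TwdlT, Cpr64Aa, Cpr50Cb and Cpr97Ea were lower by the most (differences of -2.01 to -2.40).

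Genes of the remaining tissues were lower by smaller amounts, in replicate 4 more than in replicate 5. All 15 tested photoreceptor genes were lower without overlap, against 2556 of 7485 over all tested genes, 5 of them by at least 1, with a median difference of -0.94. Galphaq, the G protein subunit of phototransduction, had 8.998 and 9.83 in replicates 4 and 5, against 11.30, 10.38, 10.84 and 11.02 in replicates 1, 2, 3 and 6; with the mean of its 3 probe sets its difference was -0.64, under the size used. Of 19 tested neuronal genes 7 were lower by at least 1 (median -0.84), among them Snap25 of synaptic vesicle release. Of 27 tested muscle genes 3 were lower by at least 1, Zasp67, up and RyR, a share near the 8.42% of all genes (median -0.64). At any size, 16 of the neuronal and 23 of the muscle genes were lower without overlap, against the same 2556 of 7485. The level of the photoreceptor list, its median deviation from the 6-array means, was -0.96 and -0.35 in replicates 4 and 5, against 0.39, 0.20, 0.23 and 0.32 in replicates 1, 2, 3 and 6. What part the share of ovary RNA in a whole fly has in these lower values was not tested.

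The gene Jhe, the esterase that breaks down juvenile hormone, which drives ovary maturation, and its relative Jhedup were 3.03 and 3.23-fold higher in replicates 1, 2, 3 and 6, and JhI-21, an amino acid transporter gene, was 2.24-fold higher in the pair. The larval fat body genes Fbp1 and Fbp2, left over from the larva, had differences of -0.98 and -0.94 without overlap. None of the 26 tested proteasome genes or 55 tested genes of the respiratory complexes and ATP synthase reached a difference of 1, although 16 and 45 of them were lower without overlap by some amount, against 2556 of 7485 over all tested genes.

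**Figure D2:**
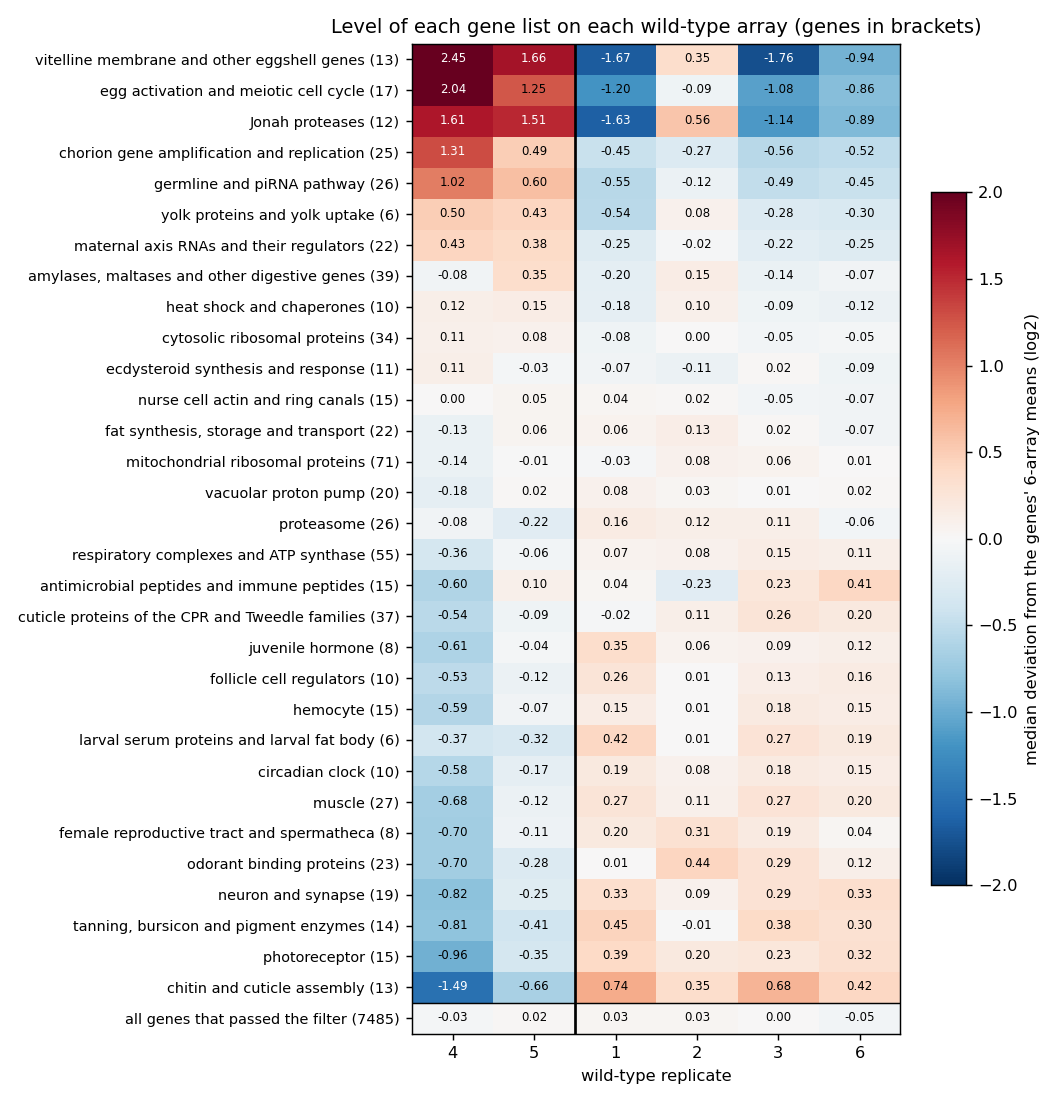
Level of each gene list on each wild-type array, as the median over its tested genes of the deviation from the gene's mean over the 6 arrays (log2, colour ends at 2); replicates 4 and 5 stand left of the line and replicates 1, 2, 3 and 6 right of it, and the number of genes is in brackets. Eggshell, egg activation, Jonah protease and replication lists are highest in replicates 4 and 5, chitin and photoreceptor lists are lowest there, and replicate 2 is near or above 0 for the vitelline membrane and Jonah lists.

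The 4 arrays below the threshold were thus not alike. Among the 539 genes higher in the pair, replicate 2 was the nearest of the 4 to the pair in 476 (88.3%), replicate 1 in 28, replicate 6 in 27 and replicate 3 in 8. Among the 630 lower genes it was nearest in 411 (65.2%), and replicate 6 was nearest in 166 (26.3%). By the mean of Cp15 and Cp36 the order from high to low was replicates 4, 5, 6, 1, 3 and 2, whereas by the level of the vitelline membrane list it was 4, 5, 2, 6, 1 and 3, with values of 2.45 and 1.66 in replicates 4 and 5, against -1.67, 0.35, -1.76 and -0.94 in replicates 1, 2, 3 and 6. Within the pair, replicate 4 was further out than replicate 5 in 480 (89.1%) of the higher genes and 580 (92.1%) of the lower ones.

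To ask whether other genes go with chorion RNA in samples that the rule did not use, each gene was fitted across the 38 deletion arrays on the mean of Cp15 and Cp36, with the 7 deletions as covariates. The slope is in log2 units per step of 7.54 in that mean, the size of the wild-type difference (13.67 in replicates 4 and 5, against 6.13 in replicates 1, 2, 3 and 6). On 4 deletion arrays both genes were above 12: Df(3R)ED5071/+_Df(2R)ED1770/+, Df(3R)ED5071/+_Df(2L)ED3/+, Df(3R)ED7665/+_Df(2R)ED1770/+ and Df(3R)ED10953/+ replicate 3. On Df(2R)ED1770/+_Df(2L)ED3/+ Cp15 had 13.81 and Cp36 5.57, so only Cp15 was high. The other 33 arrays had Cp15 between 4.004 and 7.38 (median 4.43) and Cp36 between 5.42 and 8.98 (median 5.70). The arrays therefore fall into separate clusters, and each slope rests on few arrays.

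**Figure D3:**
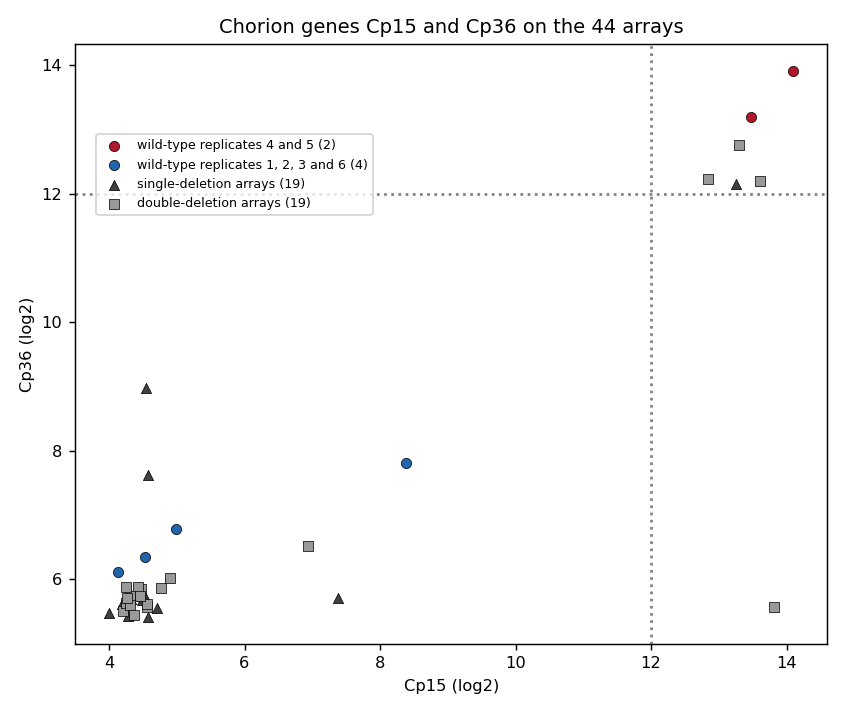
Cp15 against Cp36 (log2) on the 44 arrays, with dotted lines at 12; wild-type replicates 4 and 5 are red, wild-type replicates 1, 2, 3 and 6 blue, single-deletion arrays triangles and double-deletion arrays squares. There are 6 arrays above both lines, 2 of them wild type, and 1 double-deletion array is high for Cp15 alone.

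Across the deletion arrays 753 of 7483 genes (10.1%) had a positive slope and 85 (1.14%) a negative one at a limma adjusted p below 0.05. Of the 537 tested genes that were higher in wild-type replicates 4 and 5 apart from Cp15 and Cp36, 339 (63.1%) were among the positive slopes and none among the negative; they made up 45% of all positive slopes. Slopes were above 0 for 97.4% of the 537, against 51.9% of all tested genes. Of the 630 lower genes, 27 (4.29%) were among the negative slopes, 31.8% of all of these, and none among the positive, and 97.6% had a slope below 0. The median slope was 0.58 for the higher genes and -0.28 for the lower genes, against 0.01 for all.

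The number of calls hung on single arrays. Without Df(3R)ED10953/+ replicate 3, the 1 single-deletion array with both genes above 12, 65 positive and 2 negative slopes were called, 48 of the 537 and 0 of the 630 among them, while 97.0% of the 537 had a slope above 0 and 95.4% of the 630 a slope below 0. Positive calls numbered 441 without Df(3R)ED5071/+_Df(2R)ED1770/+, 501 without Df(3R)ED5071/Df(3R)ED10953 and 1162 without Df(2R)ED1770/+ replicate 3. Negative calls numbered 26, 33 and 217 without these same arrays. They numbered 35 without Df(3R)ED7665/+_Df(2R)ED1770/+, 38 and 54 without Df(2R)ED1770/+ replicates 1 and 2, 49 without Df(3R)ED7665/+_Df(2L)ED3/+, 56 without Df(3R)ED5071/+_Df(2L)ED4559/+, 141 without Df(2L)ED4559/+_Df(2R)ED1770/+ and 146 without Df(2L)ED3/+ replicate 3. With Cp36 alone as the measure 7 positive and 0 negative slopes were called, at 1048 and 632 with an unadjusted p below 0.05. With Cp15 alone as the measure 913 positive and 59 negative slopes were called, 363 of the 537 among the positive ones. All 4 arrays with both genes high carry array numbers from 27 on, and with a term for that block 545 positive and 53 negative slopes were called.

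**Figure D4:**
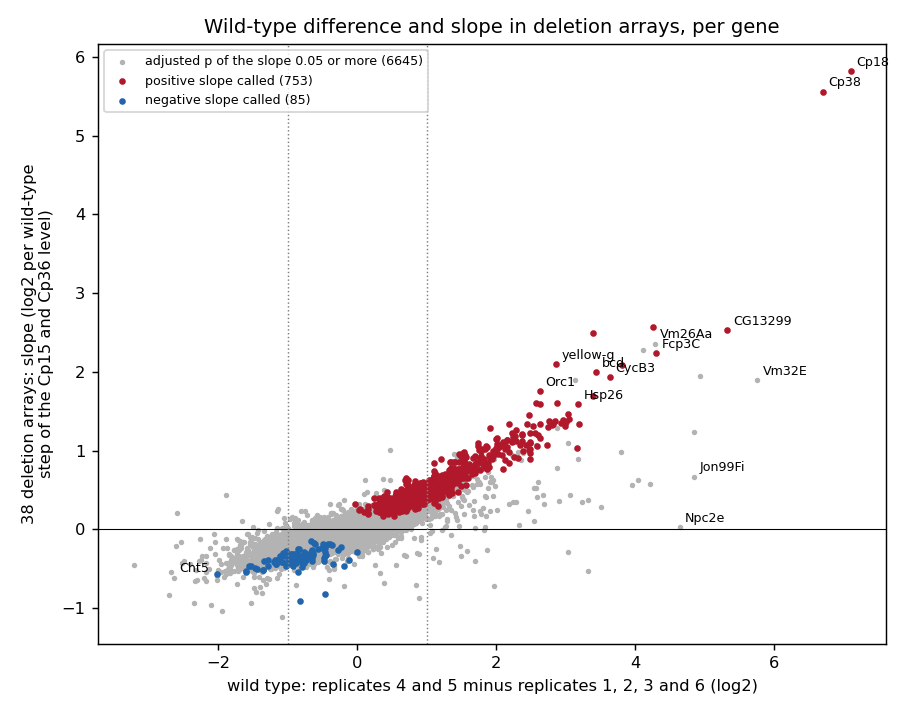
Slope of each tested gene across the 38 deletion arrays (log2 per wild-type step of the Cp15 and Cp36 level) against its wild-type difference, replicates 4 and 5 minus replicates 1, 2, 3 and 6 (log2), with red and blue points for the 753 positive and 85 negative slopes called and dotted lines at -1 and 1. Cp18 and Cp38 stand far out, egg activation and replication genes lie on the rising band, and Jon99Fi and Npc2e have large wild-type differences and slopes near 0 by comparison.

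The chorion genes Cp18 and Cp38 had the steepest slopes of the genes that passed the filter. Their medians over the deletion arrays, 5.85 and 5.09, were below 6, so the arrays where they were high brought them past it. With no filter Cp19 had a steeper slope than either. Cp18 had a slope of 5.82 ± 0.34 (SE, limma adjusted p = 3.18e-14) and Cp38 of 5.56 ± 0.32 (adjusted p = 3.18e-14). Of the 13 tested vitelline membrane and other eggshell genes 3 were called, all positive, against 10.1% of all genes, namely yellow-g (2.09 ± 0.32, adjusted p = 0.000194), Fcp3C, a follicle cell protein gene (2.23 ± 0.55, adjusted p = 0.00837), and Pxt (1.31 ± 0.43, adjusted p = 0.0457). The median of Fcp3C over the deletion arrays, 5.44, was also below 6, so arrays where it was high brought it past the filter. Without Df(3R)ED10953/+ replicate 3 the call of Pxt was lost (adjusted p = 0.509) and those of Cp18, Cp38, yellow-g and Fcp3C were not. Pxt was also not called with the array block (adjusted p = 0.124) or with Cp36 alone as the measure (adjusted p = 0.149). With Cp15 alone as the measure Pxt was called (limma adjusted p = 0.0361) and Fcp3C was not (limma adjusted p = 0.0709).

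Vm26Aa had a slope of 2.36 ± 1.04 (adjusted p = 0.142), Vm32E of 1.89 ± 1.12 (adjusted p = 0.277) and dec of 1.95 ± 0.96 (adjusted p = 0.191), which did not pass. No yolk gene of the 6 passed, with slopes of -0.10 to 0.62. In a fit with no filter on low values, which the 3 dim chorion genes and some dim eggshell genes need to enter, Cp16, Cp19 and Cp7Fc had slopes of 5.78, 6.39 and 4.98, yellow-g2 of 3.17 (adjusted p = 1.55e-10), Femcoat of 3.01 (adjusted p = 6e-12) and Muc4B of 1.88 (adjusted p = 3.82e-09).

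Vitelline membrane RNA was high on many deletion arrays with little chorion RNA. On the 33 deletion arrays other than those with Cp15 above 12 Vm26Aa ranged over several log2 units: it had 13.36 on Df(3R)ED7665/+ replicate 1, where Cp15 had 4.54 and Cp36 8.98, and between 6.05 and 13.53 (median 12.31) on the 32 others. On the 4 arrays with both chorion genes above 12 it had 13.85, 13.12, 13.29 and 12.45. On Df(2R)ED1770/+_Df(2L)ED3/+, with high Cp15 and low Cp36, it had 6.81.

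The chorion genes also did not all stand at one level on these 5 arrays. On Df(3R)ED5071/+_Df(2L)ED3/+ Cp36 and Cp15 had 12.23 and 12.83 but Cp16, Cp18 and Cp19 had 7.76, 9.59 and 8.09, against 11.86, 12.76 and 11.77 on Df(3R)ED5071/+_Df(2R)ED1770/+. On Df(2R)ED1770/+_Df(2L)ED3/+ Cp18 had 8.68, Cp16 7.56, Cp38 5.35 and Cp7Fc 3.88. On Df(3R)ED7665/+ replicate 1 the X-linked Cp36, Cp38 and Cp7Fc, at 8.98, 7.14 and 8.06, and Cp19 of 3L, at 7.34, were above the highest values of the 32 others (7.63, 6, 6.93 and 5.84), and Cp15, Cp16 and Cp18 were within theirs. Each of these genotypes but the singles had 1 array, so no spread goes with these values.

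Of 25 replication genes 19 had a slope called, all positive, against 10.1% of all genes, with a median slope of 0.69. Orc1 had a slope of 1.753 ± 0.24 (limma adjusted p = 4.22e-05), Cdc6 of 1.34 ± 0.26 (adjusted p = 0.00168), Mcm10 of 1.09 ± 0.23 (adjusted p = 0.00339) and CycE of 0.93 ± 0.20 (adjusted p = 0.0034). Without Df(3R)ED10953/+ replicate 3, 5 of the 25 were called, Orc1 among them (1.77 ± 0.31, adjusted p = 0.00315), and all 25 slopes were above 0. With array block as a term 18 were called, and with Cp36 alone as the measure none was (Orc1 1.40 ± 0.31, adjusted p = 0.079). With Cp15 alone as the measure 19 were called.

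Of 17 egg activation and meiosis genes 12 had a positive slope called (median 1.08), of 26 germline and piRNA genes 8 (median 0.52) and of 22 maternal axis genes 6 (median 0.17), and none a negative one. Over all genes 10.1% had a positive slope called. CycB3 had a slope of 1.93 ± 0.40 (limma adjusted p = 0.00257), bcd of 2.00 ± 0.43 (adjusted p = 0.0034), krimp of 1.08 ± 0.23 (adjusted p = 0.00349) and plu of 1.39 ± 0.33 (adjusted p = 0.00682). These counts were 0 of 17, 0 of 26 and 0 of 22 without Df(3R)ED10953/+ replicate 3, where CycB3 had 1.71 ± 0.51 (adjusted p = 0.0972) and bcd 1.61 ± 0.54 (adjusted p = 0.151). With array block as a term they were 8, 2 and 3, with Cp36 alone 0, 0 and 0, and with Cp15 alone 14, 10 and 6. Over all 7483 genes the positive calls in these settings were 65, 545, 7 and 913, in that order.

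CycB3 had 9.79, 8.77, 9.72 and 8.94 on the 4 arrays with both chorion genes high and 10.14 on Df(2R)ED1770/+_Df(2L)ED3/+, while it had 8.35 on Df(3R)ED7665/+ replicate 1 and between 5.84 and 8.72 on the 32 others. Orc1 had 8.71, 7.69, 8.53 and 7.86 on the 4 arrays and 9.02 on Df(2R)ED1770/+_Df(2L)ED3/+, while it had 7.04 on Df(3R)ED7665/+ replicate 1 and between 5.27 and 7.23 on the 32 others. For both genes the 5 arrays with Cp15 above 12 did not overlap the 33 arrays without it, for CycB3 only narrowly (8.77 against 8.72). The array with Cp15 alone was the highest of the 38. Both genes were named for their wild-type differences, and how many of all genes separate in the same way was not counted.

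Hsp26 had a slope of 1.59 ± 0.38 (limma adjusted p = 0.00708), Hsp27 of 1.02 ± 0.31 (adjusted p = 0.0296), qua of 0.83 ± 0.19 (adjusted p = 0.00616) and CG13299 of 2.53 ± 0.64 (adjusted p = 0.00948), and all 4 calls were lost without Df(3R)ED10953/+ replicate 3 (slopes 1.39, 1.16, 0.75 and 2.14, adjusted p = 0.146 to 0.204) and with Cp36 alone (adjusted p = 0.0933 to 0.123). Def had a slope of 1.03 ± 0.29 (adjusted p = 0.0207), 1.41 ± 0.36 (adjusted p = 0.0495) without that array and 0.88 ± 0.32 (adjusted p = 0.117) with Cp36 alone. With Cp15 alone Hsp26, Hsp27, qua, CG13299 and Def were all called (limma adjusted p = 0.0013 to 0.0232).

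The Jonah proteases, which had large positive differences in wild type, and the other digestive genes, which were mixed there, had no slope that passed. None of the 12 Jonah proteases or 39 other digestive genes had a slope called, against 10.1% and 1.14% of all genes. The median slopes were 0.34 and 0.11. All 12 Jonah slopes and 28 of the 39 others were above 0, against 51.9% of all genes. Jon99Fi, with a wild-type difference of 4.85, had a slope of 0.67 ± 0.78 (adjusted p = 0.60), and Npc2e, with one of 4.64, had 0.03 ± 0.52 (adjusted p = 0.978). On the 32 deletion arrays other than the 6 named above Jon99Fi lay between 6.42 and 12.71 with a median of 11.14, so gut protease RNA was high on most of them without chorion RNA above 12. On Df(2R)ED1770/+_Df(2L)ED3/+ it had 4.92, the lowest of the 38.

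The lists that were lower in the wild-type pair had small negative slopes. None of 13 chitin and cuticle assembly genes, 14 tanning genes, 15 photoreceptor genes or 19 neuronal genes was called, a count that the 1.14% of all genes with a negative slope would also give; the median slopes were -0.39, -0.20, -0.26 and -0.21. Cht5, with a wild-type difference of -2.64, had a slope of -0.61 ± 0.60 (limma adjusted p = 0.528), and Pxd, the lower eggshell gene, one of -0.53 ± 0.29 (adjusted p = 0.232). Of 37 structural cuticle protein genes 3 had a negative slope called and of 27 muscle genes 1, and none of either list a positive one. Without Df(3R)ED10953/+ replicate 3 no gene of these lists was called.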

How the data were processed

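Whole adult females were profiled on Affymetrix arrays, 1 array per sample of 15 flies. Each deposited value is the log2 signal of a probe set, made by the authors with RMA according to the submitters' processing notes. For the RMA version, genome build and array annotation the sources used here give nothing, and the log base was taken from the range of values. Of 18952 probe sets, 13647 had 1 gene in the platform annotation, 402 several and 4903 none; 13544 matched a Release 6 gene. For 728 tested genes with several probe sets the one with the highest mean was used, and the test took in every gene whose mean reached 6.

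Wild-type arrays were described with no test. Slopes used limma 3.58.1 (R 4.3.3; lmFit, eBayes with a trend), with 7 additive deletion terms, Benjamini-Hochberg adjustment over 7483 genes and a threshold of 0.05, and were tested on simulated data; the p-values treat arrays as independent. Tables and figures used Python 3.11.15, pandas 2.3.3, numpy 2.4.6 and matplotlib 3.10.9. The split, the 33 gene lists and the rule for named genes (all measured chorion, vitelline membrane and yolk genes, the 12 largest rises and falls, and up to 4 largest differences of every other list) were chosen with earlier results of these data known; nanos was named as a marker. The larval fat body list also took in 3 maltases. Alternatives varied the filter, probe set summary, centring, size, covariates, marker and arrays.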

Additional observations from a re-analysis of the deposited data

Results flagged for a closer look

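Of 159 named genes and 34 list levels, 5 had 1 wild-type array far from the other 5, a gap that chance gives in about 1 of 20 groups. That is fewer than this rate would flag among so many items. The genes were named partly by their wild-type differences, so the rate need not hold for them. In each of the 5 the array was replicate 4, below the others. Pxn, a peroxidase of the extracellular matrix, had 7.585 in replicate 4, against 8.389 to 8.749 in the other 5 arrays. The collagen gene vkg had 10.522, against 11.285 to 11.546, and the respiratory complex gene ND-18 had 11.488, against 12.143 to 12.45. The hemocyte list had a level of -0.593, against -0.069 to 0.183, and the vacuolar proton pump list one of -0.181, against 0.007 to 0.082.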

How the results depend on the processing

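Among the wild-type arrays, at a difference of at least 0.5 the counts were 1515 higher and 1736 lower, and at least 2 gave 126 and 34; leaving out 1 array each gave 386 to 794 higher and 301 to 1116 lower. The filter, the probe set mean and centring kept both counts within 1.5 times, but the higher share of calls was 46.1%, against 54.6% with each array centred on its median, which moved the median of all genes to 0.06. Of 159 named wild-type differences, 6 moved by over 1.5 times with the probe set mean, and 4 fell under the size used (clos, Galphaq, Mmp2 and Timp); 13 moved that far without replicate 2, 10 each without replicates 4 and 5, and 1 to 5 without each other array. Positive and negative slopes were 486 and 57 with a mean of at least 7 (198 among the wild-type higher genes), 545 and 53 with the array block, 1136 and 516 with no deletion terms, 625 and 140 without the 2 doubles of shifted mean, 2 and 0 in singles alone (2), 4 and 0 in doubles alone (4) and 7 and 0 with Cp36 alone (7). Alternatives chosen after seeing the data gave 5 and 0 with arrays numbered from 27 only (5), 6 and 0 without the arrays with both markers above 12 (6) and 639 and 65 without the array with only Cp15 above 12. Leaving out 1 deletion array each gave 65 to 1162 positive, 2 to 217 negative and 48 to 397 shared. No call changed sign; of the settings tried for 26 named slopes, 1143 left the call as it was and 222 lost it. No paired analysis was possible because the wild-type contrast lies within 1 group and the doubles carry no replicate number. Age inside the 24 h window is given only as a range, so it and the split cannot be told apart.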

Other observations

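By chromosome arm, 109 of 1220 tested X genes (8.93%) were higher in wild-type replicates 4 and 5 and 79 (6.48%) lower, while on 3R 118 of 1846 (6.39%) were higher and 168 (9.1%) lower. On chromosome 4 none of 51 tested genes was higher by at least 1 without overlap and 8 (15.7%) were lower, with a median difference of -0.48. Over all tested genes 7.2% were higher and 8.42% lower. A further 1079 probe sets with a mean of at least 6 had no single matched gene; 71 of them (6.58%) were higher and 67 (6.21%) lower by the same measure.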
